A study of Solanum pimpinellifolium with 60 samples.

Results

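The effect of the fas allele was measured in tomato floral buds collected at 2 days post floral initiation (dpi). The comparison was chosen by its labels alone: the fas-carrying genotypes at 2 dpi, fas and lc/fas, with 6 libraries, against the genotypes without fas, the wild type (WT) and lc, with 6 libraries, with the presence of the lc allele as a covariate. These 12 libraries are part of 60, which cover the same 4 genotypes at 5 stages. All 4 genotypes were near-isogenic lines (NILs) of the wild species Solanum pimpinellifolium LA1589 and came from a single backcross family, so every line shared the LA1589 background. The WT carried the LA1589 alleles at both loci, lc carried the domesticated allele next to SlWUS, fas carried the domesticated allele at SlCLV3, and lc/fas carried both. The fas allele is an inversion on chromosome 11 with 1 break in the promoter region of SlCLV3 and the other in SlYABBY2b, and it sits in an introgressed segment of Solanum lycopersicum. A line therefore differs from the WT by the whole segment and not by the break alone. Buds were dissected from many pooled inflorescences per genotype, and whole buds were sequenced. In such bulk samples, fewer cells of a type and less RNA per cell cannot be told apart.

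The floral meristem is kept in size by a feedback loop. WUSCHEL, a homeodomain transcription factor made below the stem cells, keeps the stem cells in place and turns on CLAVATA3, a small secreted peptide of the CLE family. CLAVATA3 signals through receptor kinases to hold WUSCHEL back. When the loop is weakened, the meristem widens and the flower makes more organs, which in tomato is seen as more locules per fruit. A bud of this age is forming sepals, and the inner organs come later.

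Transcripts were counted by 3′ Tag RNA-seq, a method that reads only the 3′ end of each mRNA, so that counts do not depend on gene length. The table held whole counts for 34725 genes, of which 17035 were tested. Levels are given as RPM, a gene's count as a share of the library total scaled to 1000000, and fold changes on the log2 scale from the edgeR fit. In units of 1000000 counts, the totals of the 12 libraries ran from 3.95 to 7.46 with a median of 4.58. They overlapped between genotypes: WT ran from 4.43 to 6.96, lc from 4.49 to 6.31, fas from 4.24 to 5.06 and lc/fas from 3.95 to 7.46. A single count was worth 0.134 RPM in the deepest library and 0.253 RPM in the shallowest. Libraries of the same genotype correlated on the log scale with r between 0.966 and 0.985 across genes, and the median between genotypes, 0.977, was about the same as the median within them, 0.977. The lowest mean correlation with its own group belonged to fas replicate 3 (0.969).

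The stage label was checked against genes that mark floral organs. In the 2 dpi WT buds, the homolog of APETALA1 (Solyc05g056620), a MADS-box gene of the outer whorls, stood at 731 ± 37.3 RPM (SD, n = 3). The homolog of UFO (Solyc02g081670), a floral meristem gene, stood at 75.0 ± 9.36 RPM, up from 9.97 ± 1.68 RPM in the meristem sample that pools floral with inflorescence meristems (F&IM). The APETALA1 homolog was higher in the F&IM, at 896 ± 58.0 RPM, so its level does not set 2 dpi buds apart. Petal and stamen genes were still low, apart from the APETALA3 homolog Solyc02g084630. It was at 164 ± 9.47 RPM at 2 dpi, against 55.9 ± 17.3 RPM in the F&IM and 271 ± 9.92 RPM at 4 dpi. Another APETALA3 homolog (Solyc04g081000) was at 14.9 ± 2.99 RPM at 2 dpi and at 966 ± 127 RPM at 4 dpi. TAG1 (Solyc02g071730), the tomato AGAMOUS gene of stamens and carpels, was at 2.43 ± 0.374 RPM at 2 dpi and at 70.3 ± 6.88 RPM at 4 dpi. The groups with and without fas overlapped in the petal markers at 2 dpi. Solyc04g081000 ranged from 9.85 to 32.8 RPM without fas and from 10.9 to 29.1 RPM with fas. Solyc02g084630 ranged from 135 to 175 RPM without fas and from 127 to 184 RPM with fas. The 2 PISTILLATA homologs stayed under 10.8 RPM in all 12 libraries. The homolog of ATC (Solyc06g074350), a gene of the TFL1 family which keeps shoot meristems from turning floral, did not exceed 3.54 RPM at 2 dpi, against 41.4 ± 11 RPM in the sympodial shoot apical meristem (SYM) of the WT.

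At 2 dpi, 19 genes passed an adjusted p under 0.1 for the fas effect in edgeR's quasi-likelihood test, 9 higher (0.0528% of the genes tested) and 10 lower with fas (0.0587%), 0.112% in all. At an unadjusted p under 0.05 there were 804 genes (4.72%), 419 higher (2.46%) and 385 lower (2.26%). The median log2 fold change over all genes was 0.0026. In 13 of the 19 genes the 6 libraries with fas and the 6 without did not overlap in RPM. Among all genes tested, 0.276% did not overlap. The 19 were called on these same libraries, so their separation largely follows from the choice and is no added evidence. The 2 largest changes were those of SlCLE9, which was higher, and SlYABBY2b, which was lower. The fit had no term for the replicate number, although residuals of same-numbered libraries correlated at a mean of 0.19, against -0.094 for other pairs. With the replicate number as a block, 40 genes were higher and 43 lower, and all 19 calls were kept. The results below are those of the fit without the block, so a gene that did not pass there may pass in the blocked fit.

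**Figure D1:**
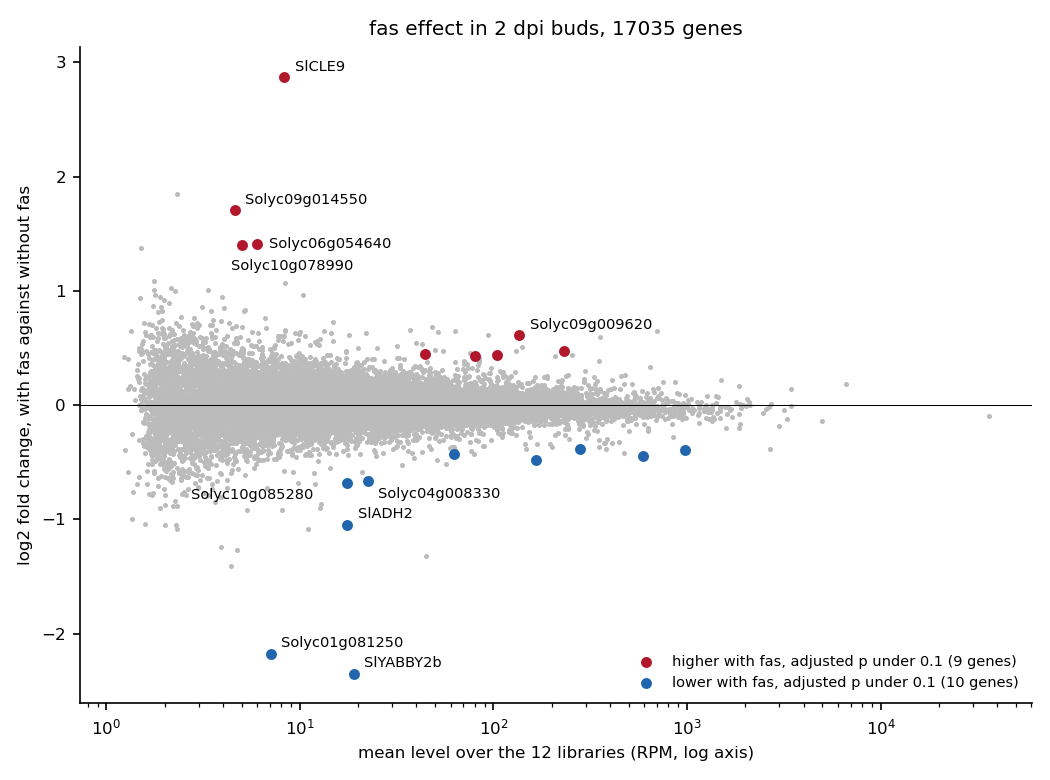
Log2 fold change with fas against without fas (y axis) by mean level over the 12 libraries in RPM (x axis, log scale), for 17035 genes in grey. The 9 genes higher with fas are in red and the 10 lower are in blue, and SlCLE9 at 2.87 and SlYABBY2b at -2.35 stand farthest from 0.

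SlYABBY2b (Solyc11g071810), a member of the YABBY family of transcription factors that mark the outer side of lateral organs, contains 1 of the breaks of the inversion and so checks the fas part of the genotype labels, though not the lc part. Its level was 30.0, 33.5 and 32.6 RPM in the WT libraries and 31.2, 33.6 and 29.7 RPM in lc. In fas it was 5.05, 8.89 and 3.30 RPM, and in lc/fas 5.66, 7.24 and 7.09 RPM. All 6 fas-carrying libraries lay far under the lowest library without fas, and no library went against its label for fas. The mean fell 5.12-fold, a log2 fold change of -2.35 (SE 0.15, edgeR adjusted p = 1.92e-09), and it was not 0 in any library. The paper reports that nearly all reads left in fas lines lay before the break, and describes these RNAs as truncated and probably without function. The counts per gene used here do not show where reads lay.

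SlCLE9 (Solyc06g074060) encodes a CLE peptide that, like SlCLV3, is paired with Arabidopsis CLAVATA3. In WT it was barely detected, at 1.13, 1.58 and 1.34 RPM, and in lc it was at 1.90, 2.36 and 3.57 RPM. In fas it was at 14.9, 10.5 and 20.8 RPM, and in lc/fas at 12.9, 14.6 and 14.2 RPM. The lowest fas-carrying library was above the highest library without fas, and the mean was 7.40-fold higher. The log2 fold change was 2.87 (SE 0.23, edgeR adjusted p = 1.31e-07).

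SlCLV3 (Solyc11g071380) itself did not pass the test in these buds. Its level was 16.7, 18 and 24.8 RPM in WT and 24.4, 27 and 23.4 RPM in lc. The fas libraries were at 21.8, 20.9 and 26 RPM, and those of lc/fas at 24, 21.5 and 24.8 RPM. The libraries with fas lay inside the range of those without it. The log2 difference was 0.039, with a 95% interval from -0.20 to 0.27 (edgeR adjusted p = 1.00, rounded). That interval leaves out the fas effect on SlCLV3 fitted with the same model in the SYM (-1.10) and in the F&IM (-0.74).

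SlWUS (Solyc02g083950) overlapped between the groups too, at 22.7 to 32.8 RPM without fas (median 26.7) and 21.3 to 39.5 RPM with fas (median 26.5). Its log2 difference was 0.055, with a 95% interval from -0.20 to 0.31, and its sign turned when fas replicate 2, the highest library at 39.5 RPM, was left out (-0.072). TAG1 was at 0.792 to 3.79 RPM without fas and 1.07 to 5.30 RPM with fas, too low for its interval, from -0.55 to 1.15, to say more. Of the 6 genes tested in the list of stem cell and CLAVATA-WUSCHEL genes, SlCLE9 passed, where 0.112% of all genes did. The AGL20 homolog, which the study places among its stem cell genes, is counted here with the MADS-box genes. The homolog of SHOOT MERISTEMLESS (Solyc02g081120), a homeobox gene that keeps meristem cells undifferentiated in Arabidopsis, came next. It was at 352 to 392 RPM without fas and 379 to 470 RPM with fas, a log2 difference of 0.22 (SE 0.07) that did not pass (edgeR adjusted p = 0.734).

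**Figure D2:**
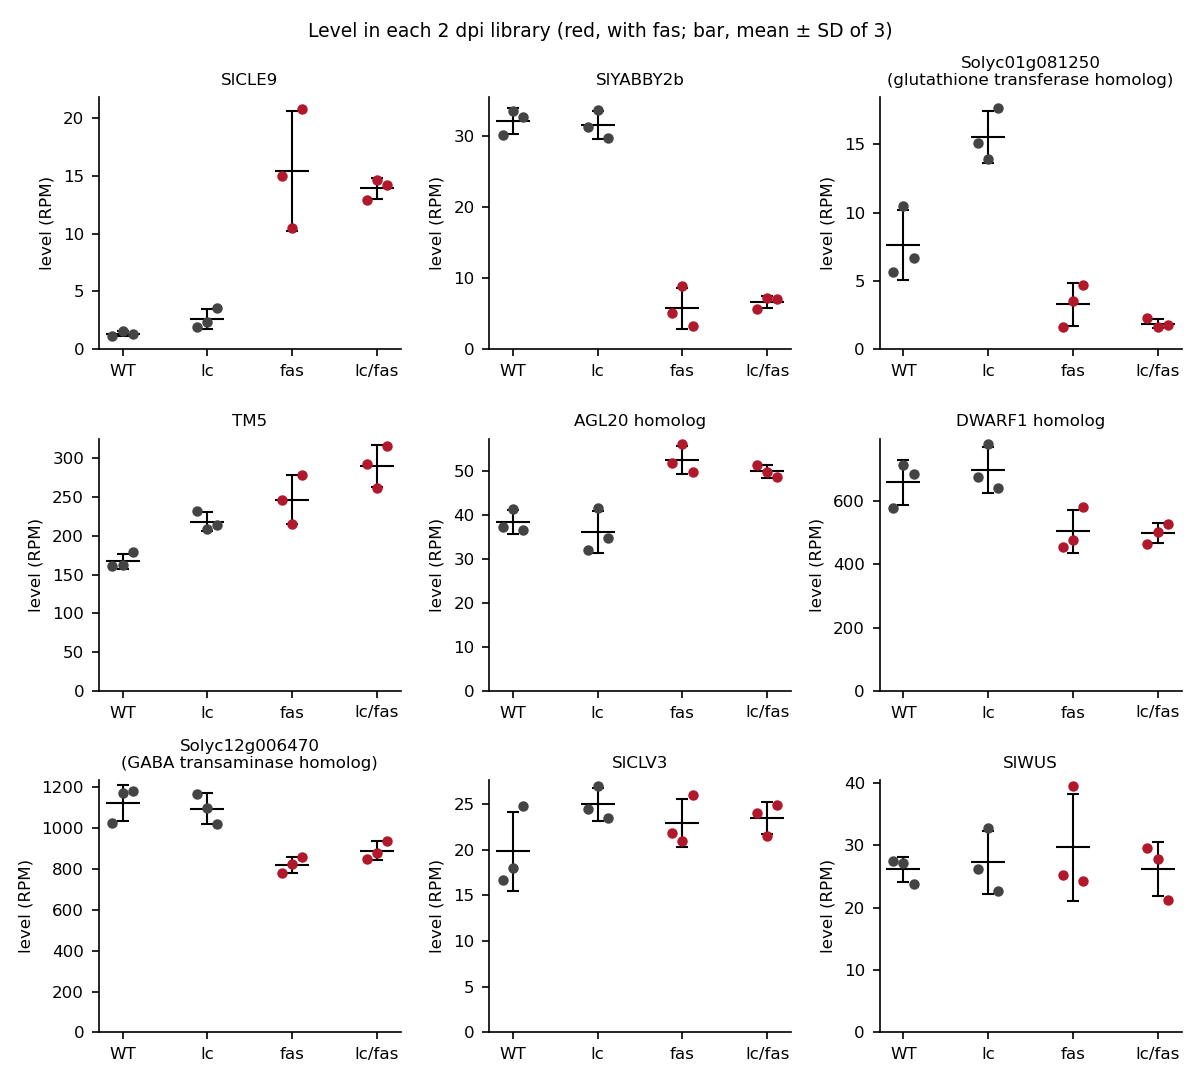
Level in RPM (y axis) in each library of 2 dpi buds by genotype (x axis), for 9 genes; points are libraries, grey without fas and red with fas, and bars are the mean ± SD of 3. The SlCLE9 and SlYABBY2b panels separate by fas in both backgrounds, while SlCLV3 and SlWUS overlap.

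Of the other genes that rose with fas, several encode regulators. TM5 (Solyc05g015750) is the tomato counterpart of SEPALLATA3, a MADS-box gene that works with the organ identity genes of the inner whorls. Its level was 161, 162 and 179 RPM in WT and 232, 209 and 214 RPM in lc. It was 246, 215 and 279 RPM in the fas libraries, and 292, 261 and 316 RPM in those of lc/fas. The fas libraries were all above WT, but fas replicate 2 at 215 RPM lay under lc replicate 1 at 232 RPM, so the groups overlapped. The log2 fold change was 0.47 (SE 0.08, edgeR adjusted p = 0.0276). TM5 is a gene that climbs steeply over these stages: without fas its mean was 12.8 RPM for the F&IM, 193 RPM at 2 dpi and 497 RPM at 4 dpi. The petal and stamen genes, which also climb from 2 to 4 dpi, overlapped between the groups, as given above. Log2 differences with fas were 0.23 for Solyc04g081000, 0.44 and 0.24 for the PISTILLATA homologs and -0.0037 for Solyc02g084630. Intervals were wide, from -0.63 to 1.10 for Solyc04g081000 and from -0.41 to 1.29 for the PISTILLATA homolog Solyc08g067230. Whether the buds with fas were further along in development was not tested.

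The homolog of AGL20 (Solyc01g092950), known in Arabidopsis as SOC1 and as a MADS-box activator of flowering, was at 37.3, 41.5 and 36.6 RPM in WT and 32.2, 41.6 and 34.8 RPM in lc. With fas it was at 51.9, 56.1 and 49.8 RPM in the single NIL and 51.4, 49.8 and 48.6 RPM in the double NIL. The groups did not overlap, and the log2 fold change was 0.45 (SE 0.08, edgeR adjusted p = 0.0337). Without fas its mean was 170 RPM in the SYM, 36.96 RPM in the F&IM, 37.31 RPM at 2 dpi and 26.2 RPM at 4 dpi. From the F&IM to 2 dpi, where TM5 climbs, the mean of the AGL20 homolog was thus nearly unchanged, and it was lower at 4 dpi.

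Solyc06g053830 is paired with IAA7, in Arabidopsis a repressor of auxin-responsive transcription. It was at 85.4 to 99.8 RPM without fas and 110 to 133 RPM with fas (0.44, SE 0.08, edgeR adjusted p = 0.0214), and the next highest library without fas was at 86.7 RPM. SlSWEET1b (Solyc04g064620), a member of the SWEET family of sugar transporters, was at 62.4 to 77.3 RPM without fas and 80.4 to 106 RPM with fas (0.43, SE 0.09, edgeR adjusted p = 0.0508). Neither pair of ranges overlapped.

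The other 4 genes that rose have no known role in the bud that the sources used here give. Solyc09g009620, a gene with no homolog given, was at 80.2 to 142 RPM without fas and 148 to 186 RPM with fas (0.62, SE 0.10, edgeR adjusted p = 0.0111). Solyc06g054640, paired with an Arabidopsis gene of the DUF506 family, went from a mean of 3.14 to 8.84 RPM (1.41, SE 0.23, edgeR adjusted p = 0.0111), with no overlap between 1.13 to 5.46 RPM and 7.31 to 11.3 RPM.

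Solyc10g078990 is paired with ZFP8, a zinc finger protein of trichome formation in Arabidopsis. It rose from a mean of 2.76 to 7.23 RPM (1.40, SE 0.27, edgeR adjusted p = 0.0394), although fas replicate 2 stayed at 2.77 RPM, inside the range without fas, and the other 5 fas-carrying libraries were at 6.84 RPM or more. Like TM5 it climbs with stage, with 0.386 RPM in F&IM libraries without fas and 41.8 RPM at 4 dpi. Solyc09g014550, paired with a member of the polyketide cyclase family, was at 15.6, 10.5 and 9.2 RPM in fas but at 3.18, 2.68 and 2.03 RPM in lc/fas, against 1.11 to 2.94 RPM in the 6 libraries without fas. Its log2 fold change was 1.71 (SE 0.28, edgeR adjusted p = 0.0111). These 2 genes had means under 5 RPM over the 12 libraries, and they are named here because all 19 are.

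The genes that fell were led, after SlYABBY2b, by Solyc01g081250, paired with a glutathione transferase of the tau class, enzymes that attach glutathione to reactive small molecules. It was at 5.65, 10.5 and 6.70 RPM in WT and at 15.1, 13.9 and 17.6 RPM in lc. In fas it was at 1.61, 3.56 and 4.72 RPM and in lc/fas at 2.30, 1.61 and 1.77 RPM. The groups did not overlap, and the log2 fold change was -2.17 (SE 0.30, edgeR adjusted p = 0.0111). The lc libraries were all above the WT libraries.

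Solyc07g043500, Solyc04g008330 and Solyc10g085280 are each paired with an Arabidopsis UDP-glycosyltransferase, a class that moves sugars onto hormones and other small molecules; the partner of the last, UGT76B1, is known to act on defence signals. Solyc07g043500 was at 166 to 217 RPM without fas and 118 to 152 RPM with fas (-0.48, SE 0.09, edgeR adjusted p = 0.0352). The other 2 had log2 fold changes of -0.67 (SE 0.13, edgeR adjusted p = 0.0376) and -0.68 (SE 0.13, edgeR adjusted p = 0.0504). Ranges overlapped only for Solyc04g008330, where lc/fas replicate 3 reached 23.6 RPM and WT replicate 1 stood at 21.5 RPM.

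Solyc12g006470, paired with the GABA transaminase POP2, which breaks down the amino acid GABA, had the highest mean level of the 19. It was at 1018 to 1180 RPM without fas and 781 to 938 RPM with fas, so all 6 fas-carrying libraries were lower (-0.39, SE 0.08, edgeR adjusted p = 0.0504). Solyc09g075750, paired with MAKR1 of a family of membrane-associated kinase regulators, was at 64.1 to 79.7 RPM without fas and 46.0 to 60.6 RPM with fas (-0.43, SE 0.09, edgeR adjusted p = 0.0518). SlADH2 (Solyc06g059740), an alcohol dehydrogenase, had the largest p of the 19 (-1.04, SE 0.20, edgeR adjusted p = 0.0768). It was at 21.7, 20.8 and 45.3 RPM in WT and 17.4, 13.3 and 22.7 RPM in lc. The fas libraries were at 15.6, 14 and 14.4 RPM, and those of lc/fas at 6.89, 9.12 and 9.12 RPM. The fas and lc ranges overlapped, and WT replicate 3 stood well above the rest. The nearest genes past the threshold were Solyc04g054740 (0.50, edgeR adjusted p = 0.104) and Solyc03g112590 (0.52, edgeR adjusted p = 0.106).

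A DWARF1 homolog (Solyc02g069490), an enzyme of the last steps of sterol biosynthesis on the way to brassinosteroids, was at 578, 714 and 683 RPM in WT and 675, 778 and 639 RPM in lc. The fas libraries were at 455, 475 and 579 RPM, and those of lc/fas at 465, 502 and 527 RPM. Its groups touched only at fas replicate 3 (579 RPM) and WT replicate 1 (578 RPM), and its log2 fold change was -0.45 (SE 0.09, edgeR adjusted p = 0.0394). A second DWARF1 homolog, Solyc02g030170, had a mean of 489 RPM without fas and 498 RPM with fas (0.014, SE 0.08, edgeR adjusted p = 1.00, rounded). The name DWARF1 homolog is used elsewhere for Solyc02g069490.

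Other genes of the sterol route lay on the same side of 0 without passing the test. In the list of mevalonate, sterol and brassinosteroid genes, 24 members were tested, 1 fell past the adjusted threshold, and 12 had an unadjusted p under 0.05, all of them lower with fas, against 2.26% of all genes on that side. The median log2 fold change of the list was -0.21, beside 0.0026 over all genes, and 20 of the 24 members were below 0. The summed level of the list was 4175 to 5054 RPM without fas and 3631 to 4710 RPM with fas, so the sums overlapped. Most of these members were picked by the study from these same libraries, so the list is not independent evidence of its direction.

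Named members stood as follows. Solyc01g091320, paired with the sterol methyl oxidase SMO1-1, was at 475 to 579 RPM without fas and 334 to 534 RPM with fas (-0.42, SE 0.10, edgeR adjusted p = 0.317). The DWARF7 homolog (Solyc02g086180), a sterol desaturase, was at 150 to 179 RPM and 105 to 159 RPM (-0.39, SE 0.10, edgeR adjusted p = 0.338), and the DWARF5 homolog (Solyc06g074090), a sterol reductase, had a log2 difference of -0.34 (SE 0.10, edgeR adjusted p = 0.550). HMG-CoA synthase, an early enzyme of the mevalonate route, had 2 homologs in the list. Solyc12g056450, the more abundant, had a mean of 17.4 RPM without fas and 18.1 RPM with fas (0.029, SE 0.13, edgeR adjusted p = 1.00, rounded). Solyc08g080170 was at 6.47 to 10.9 RPM without fas and 3.30 to 6.57 RPM with fas (-0.73, SE 0.20, edgeR adjusted p = 0.486), and its log2 difference was -1.34 in fas against WT (edgeR adjusted p = 0.0650) and -0.21 in lc/fas against lc. The difference between those backgrounds did not pass (edgeR adjusted p = 1.00, rounded).

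Of the floral MADS-box genes, 13 were tested, and 2 rose, TM5 and the AGL20 homolog, while none fell. A further 7 MADS-box genes of the planned list were left out for want of a homolog pair from the study, so these counts do not cover the family. Over all genes 0.0528% rose at that threshold. At an unadjusted p under 0.05 there were 3, all higher, against 2.46% of all genes on that side. The third was a SEPALLATA2 homolog (Solyc02g089200) at 350 to 579 RPM without fas and 430 to 607 RPM with fas (0.26, SE 0.11, edgeR adjusted p = 0.983). The median of this list was 0.23, beside 0.0026 over all genes. The study had already named TM5 and the AGL20 homolog from these same libraries, so the list is not independent evidence of its direction. The sum over the list, 1928 to 2377 RPM without fas and 2224 to 2654 RPM with fas, is carried by a few abundant members.

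Among inflorescence and organ boundary genes, none of the 10 tested passed in edgeR, and 2 had an unadjusted p under 0.05. The UFO homolog was at 66.7 to 95.7 RPM without fas and 82.2 to 123 RPM with fas (0.26, SE 0.10, edgeR adjusted p = 0.907). A homolog of BLADE-ON-PETIOLE2 (Solyc04g040220), a regulator of organ boundaries in Arabidopsis, was at 5.70 to 9.49 RPM and 3.75 to 6.43 RPM (-0.48, SE 0.16, edgeR adjusted p = 0.838). ENO (Solyc03g117230), a transcription factor gene of the ERF family, had a log2 difference of 0.19 (SE 0.10, edgeR adjusted p = 1.00, rounded). Of 5 YABBY genes tested, only SlYABBY2b passed, where 0.112% of all genes did. The homolog of CRABS CLAW (Solyc01g010240), a YABBY gene of carpels, was near the detection limit at 0.317 to 1.71 RPM without fas and 1.78 to 3.04 RPM with fas, and these ranges did not overlap (0.96, SE 0.33, edgeR adjusted p = 0.849).

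None of the 13 listed kinesins and none of the 12 listed cell division genes tested passed in edgeR. At an unadjusted p under 0.05 there were 1 listed kinesin and 0 listed cell division genes. The kinesin list does not cover the family. It left out Solyc11g071730, a kinesin homolog of the fas segment given below, which was lower at that level without passing in edgeR. It also left out the ATK1 homolog Solyc12g005250, with a log2 difference of 0.0055 (SE 0.08). The list medians were -0.050 for kinesins and 0.0047 for cell division. In the auxin list, 1 of 13 rose, the IAA7 homolog, where 0.0528% of all genes did. At an unadjusted p under 0.05, 2 were higher and 1 lower, beside 2.46% and 2.26% of all genes. The list median was 0.061. The ARF8 homolog (Solyc03g031970) was at -0.29 (SE 0.10, edgeR adjusted p = 0.826) and the ETTIN homolog (Solyc02g077560), an auxin response factor of carpel patterning, at 0.25 (SE 0.11, edgeR adjusted p = 1.00, rounded).

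For flavonoids, 0 of 9 genes tested passed in edgeR and 3 were lower at an unadjusted p under 0.05 (2.26% of all genes), led by a chalcone synthase homolog (Solyc09g091510) at 8.40 to 24.5 RPM without fas and 7.12 to 12.9 RPM with fas (-0.87, SE 0.24, edgeR adjusted p = 0.510). For phenylpropanoids and lignin, 0 of 13 passed in edgeR and 2 were lower and 2 higher at that level. The homolog of CAD9 (Solyc11g010960), an alcohol dehydrogenase of the lignin route, came nearest, at 47.3 to 55.7 RPM and 37.2 to 45.1 RPM with no overlap (-0.35, SE 0.08, edgeR adjusted p = 0.165). The study had reported flavonoid and lignin terms among its fas genes from these same libraries, so neither list is independent evidence.

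Photosynthesis genes, which tell of green tissue, had 0 of 8 past the threshold in edgeR and 4 higher at an unadjusted p under 0.05 (2.46% of all genes), with a median of 0.26. The list as a whole was at 555 to 720 RPM without fas and 570 to 728 RPM with fas, so its sums overlapped almost fully. Its members were matched through the study's gene lists, which draw in part on these same libraries, so the list is not independent evidence. The homolog of LHCA4 (Solyc06g069730), an antenna protein of photosystem I, was at 3.30 to 8.47 RPM and 6.52 to 11 RPM (0.76, SE 0.20, edgeR adjusted p = 0.389). Handling-related lists overlapped too. Heat shock genes summed to 344 to 727 RPM without fas and 232 to 609 RPM with fas, with 0 of 7 called and 1 lower at an unadjusted p under 0.05. Jasmonate and wounding genes summed to 3669 to 7993 RPM and 3632 to 7916 RPM, with 0 of 19 called and 1 higher at that level.

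**Figure D3:**
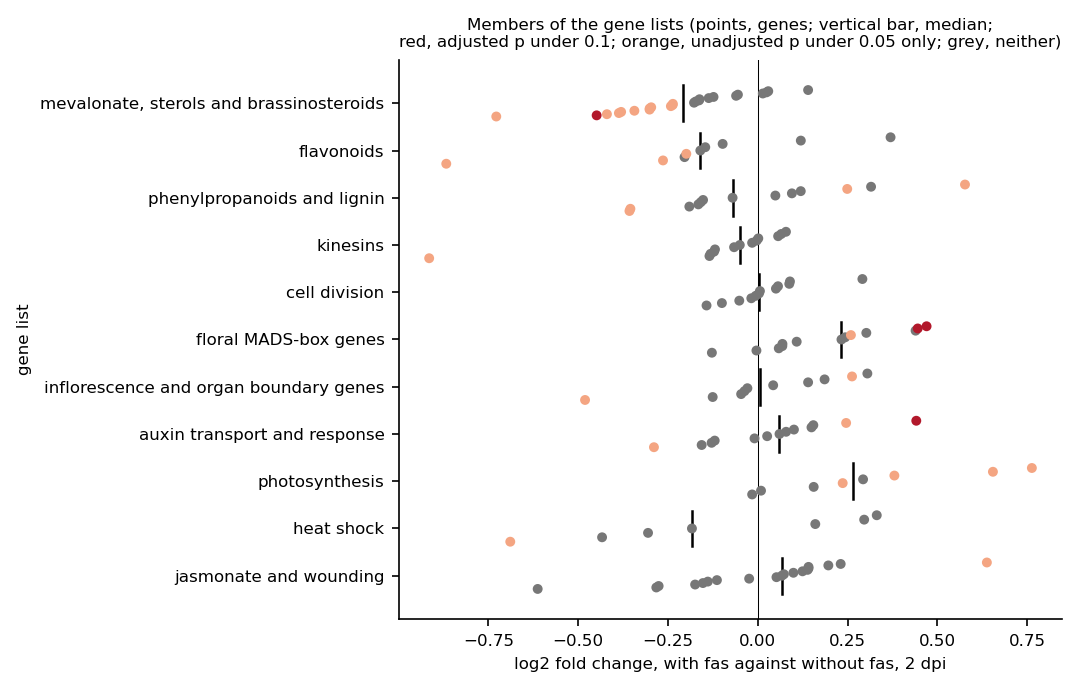
Log2 fold change with fas against without fas at 2 dpi (x axis) for the members of 11 gene lists (y axis); points are genes and vertical bars are list medians. The sterol list sits mostly left of 0, with 12 of 24 members at an unadjusted p under 0.05, and the MADS-box list sits mostly right of 0, with 2 genes past the adjusted threshold.

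The segment on chromosome 11 that carries fas was looked at gene by gene, because the fas-carrying lines have the Solanum lycopersicum copy of it. Between the identifiers Solyc11g071370 and Solyc11g071830 the table held 47 genes, and 28 were tested. SlYABBY2b and Solyc11g071640 passed the adjusted threshold, both lower. Solyc11g071640 is paired with a beta-glucosidase-like enzyme of the cell wall and was at 286 to 332 RPM without fas and 220 to 268 RPM with fas (-0.39, SE 0.08, edgeR adjusted p = 0.0504). At an unadjusted p under 0.05 there were 10 lower and 4 higher of the 28, beside 4.72% of all genes. Next after the 2 called was Solyc11g071830, paired with the DnaJ chaperone ATJ3. It was at 46.4 to 99.4 RPM without fas and 17.5 to 40.4 RPM with fas, with no overlap (-1.32, SE 0.28, edgeR adjusted p = 0.338).

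Others in the segment moved by less. A kinesin homolog (Solyc11g071730) was at 202 to 247 RPM without fas and 173 to 205 RPM with fas (-0.26, SE 0.07, edgeR adjusted p = 0.498), and among the higher ones were a calmodulin-like gene (Solyc11g071740; 0.72, SE 0.25, edgeR adjusted p = 0.851) and a homolog of HCT, an acyltransferase of the lignin route (Solyc11g071470; 0.25, SE 0.09, edgeR adjusted p = 0.851). For genes of the segment, a difference in expression and a difference in how reads of the 2 species' alleles match the reference cannot be told apart here.

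The fas effect was then set out without lc (fas against WT) and with lc (lc/fas against lc). All 19 genes had the same sign in both. They were called on the fas effect over both backgrounds in these same libraries, so a shared sign largely follows from how they were chosen. With 3 libraries against 3, 7 genes passed for fas against WT and 4 for lc/fas against lc. SlYABBY2b and SlCLE9 passed in both: SlYABBY2b at -2.47 (SE 0.21) and -2.24 (SE 0.20), and SlCLE9 at 3.42 (SE 0.32) and 2.44 (SE 0.29). The interaction of SlCLE9 did not pass (-0.99, SE 0.47, edgeR adjusted p = 1.00, rounded). Of the 19, 3 genes had an unadjusted interaction p under 0.05. The other two were Solyc01g081250, at -1.27 (SE 0.32) and -3.03 (SE 0.31), and Solyc09g014550, at 2.25 (SE 0.31) and 0.76 (SE 0.39), and neither interaction passed the adjusted threshold.

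In the test of the interaction itself over all genes, 2 genes passed, 0.0117% of those tested, and 597 had an unadjusted p under 0.05 (3.5%). With the replicate number as a block, 10 genes passed. Neither of the 2 passed for the fas effect averaged over both backgrounds. Solyc11g040040 is paired with a member of the NPH3 family, proteins of light signalling in Arabidopsis. It was at 28.9, 26.7 and 33.0 RPM in WT and at 34.5, 27.5 and 29.4 RPM in lc/fas, but at 10.6, 9.0 and 12 RPM in lc and at 10.8, 8.30 and 12.3 RPM in fas. Each single NIL was low and the double NIL overlapped the WT, with a fas effect of -1.53 (SE 0.17, edgeR adjusted p = 1.23e-04) without lc and 1.52 (SE 0.17, edgeR adjusted p = 8.54e-05) with lc. The interaction was 3.05 on the log2 scale (SE 0.24, edgeR adjusted p = 7.01e-07). In the other 4 stages the WT and lc/fas means were also above those of both single NILs, although at 6 dpi the lowest WT library (37.4 RPM) lay under the highest lc library (37.7 RPM). SYM means were 10.9 RPM for WT and 7.84 RPM for lc/fas, against 2.33 RPM for lc and 1.49 RPM for fas, and at 4 dpi they were 62.0 and 62.2 RPM against 40.7 and 37.7 RPM. The genotypes are NILs of 1 backcross family. For Solyc11g040040 and the 2 genes that follow, an effect of lc and fas together and a difference between these lines elsewhere in the genome cannot be told apart.

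Solyc12g082720, for which no homolog is given, was at 43.8, 42.8 and 46.4 RPM in WT, and at 20.3 to 29.1 RPM in the other 9 libraries. Its interaction was 1.2 (SE 0.18, edgeR adjusted p = 0.0134), made of -0.89 (SE 0.13) without lc and 0.31 (SE 0.13) with lc. The gene next to it by identifier, Solyc12g082730, paired with the kinesin ZWICHEL, had a like order: 11.3, 10.5 and 12.9 RPM in WT, against 1.74 to 5.34 RPM in the other 9 libraries. It fell in fas against WT (-1.32, SE 0.24, edgeR adjusted p = 0.0637), and its interaction did not pass (1.13, SE 0.41, edgeR adjusted p = 1.00, rounded).

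**Figure D4:**
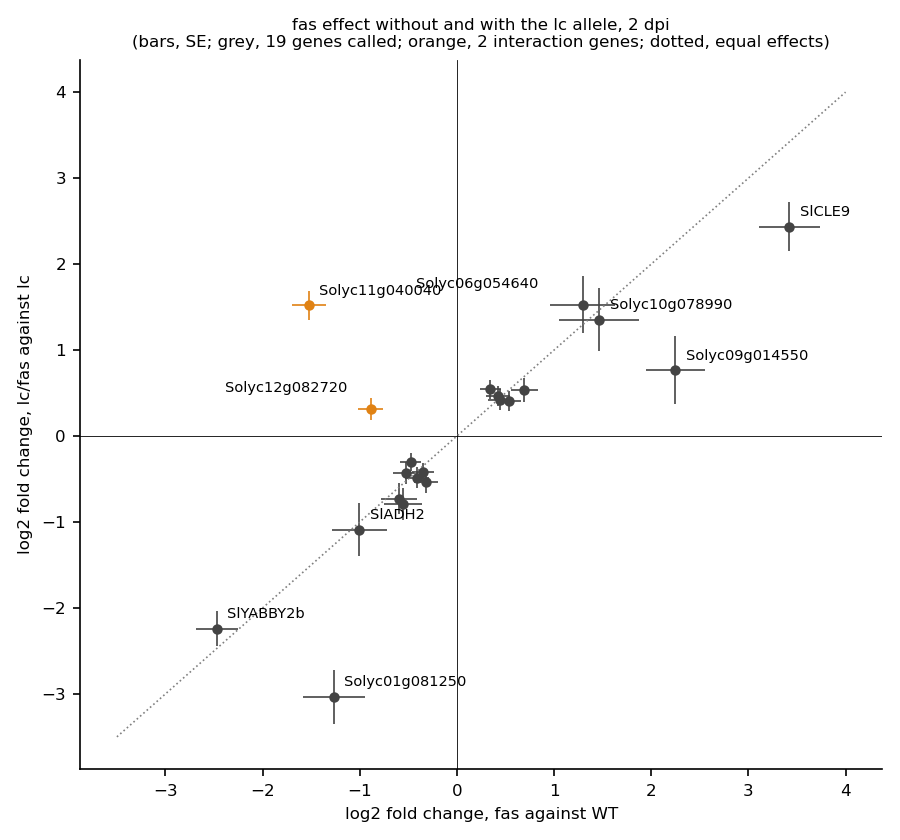
Log2 fold change of fas against WT (x axis) and of lc/fas against lc (y axis) at 2 dpi; points are the 19 genes called for fas in grey and the 2 interaction genes in orange, and bars are standard errors. The 19 lie in the quadrants of equal sign, and Solyc11g040040 lies at -1.53 and 1.52.

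The same model was fitted to the 12 libraries of each other stage, which are separate libraries of the same lines. The stages were dissected from the inflorescences collected for each genotype and may share plants. A sign shared between stages is therefore not independent evidence. The SYM gave 9 genes called for fas (0.0529%), the F&IM 20 (0.117%), 4 dpi 3 (0.0173%) and 6 dpi 1 (0.00553%). Of the 19 genes of 2 dpi, those also called, all in the same direction, were 2 of 18 tested for the SYM, 6 of 18 for the F&IM, 2 of 18 for 4 dpi and 1 of 17 for 6 dpi. The sign was that of 2 dpi for 17, 17, 16 and 14 of them. SlCLE9 was called at each stage where it was tested, with 2.19 for the SYM, 2.41 for the F&IM and 2.49 for 4 dpi; at 6 dpi it was at 0.185 RPM without fas and 0.667 RPM with fas and was not tested. SlYABBY2b was called in the SYM (-2.10), at 4 dpi (-2.89) and at 6 dpi (-2.68), and in the F&IM, where it stood at 9.40 RPM without fas and 5.76 RPM with fas, it was at -0.72 (SE 0.19, edgeR adjusted p = 0.292).

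The other genes called in the F&IM were the AGL20 homolog (0.57), SlSWEET1b (0.72), the IAA7 homolog Solyc06g053830 (0.41), Solyc06g054640 (1.25) and Solyc01g081250 (-1.77). The DWARF1 homolog kept a log2 difference between -0.35 and -0.44 in the other 4 stages, passing in none of them. SlADH2, lower at 2 dpi, had -0.26 for the SYM, -0.44 for the F&IM, 0.0092 for 4 dpi and 0.47 for 6 dpi. Solyc10g078990, higher at 2 dpi, had -0.017 for 4 dpi and -0.16 for 6 dpi and was not tested in the meristem stages. The sterol list had a median of -0.32 for the SYM, -0.13 for the F&IM, -0.21 for 4 dpi and -0.21 for 6 dpi, with 13, 6, 12 and 5 of 24 members lower at an unadjusted p under 0.05 and none higher. Over all genes, 2.31%, 2.44%, 1.96% and 0.796% were lower at that level in these stages.

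**Figure D5:**
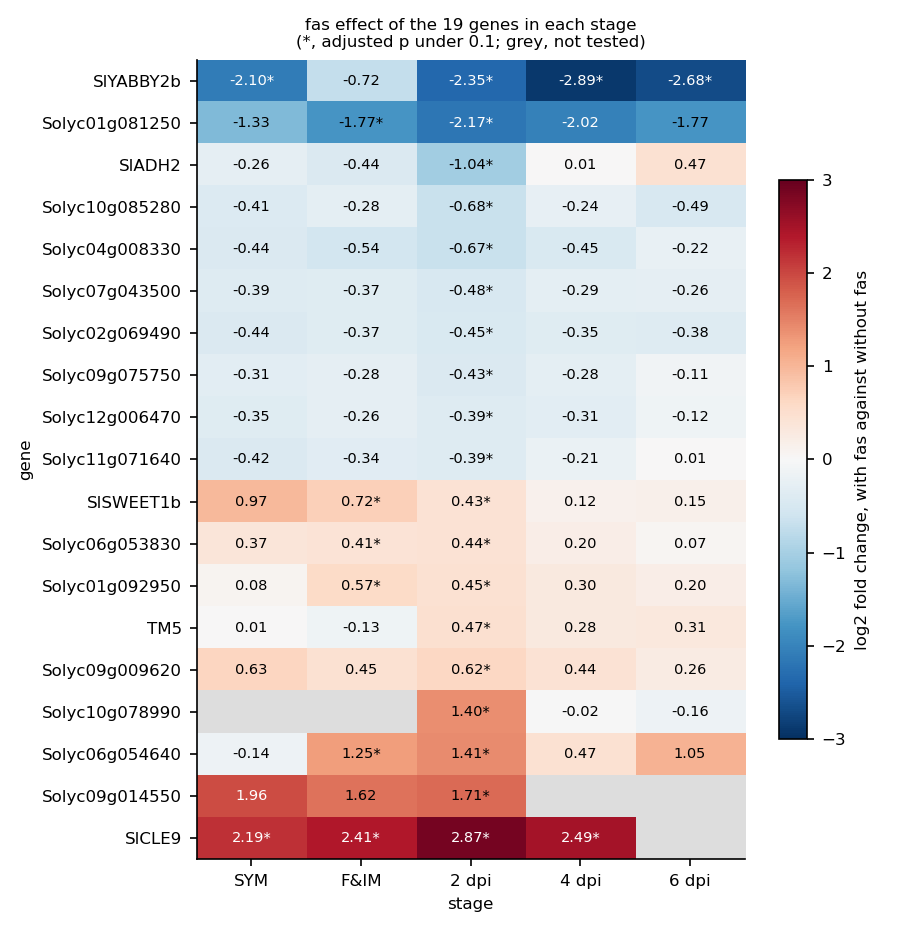
Log2 fold change with fas against without fas for the 19 genes called at 2 dpi (rows) in each of the 5 stages (columns), with * for an adjusted p under 0.1 and grey where a gene was not tested. SlCLE9 and SlYABBY2b keep changes of 2 or more in size in every tested stage except the F&IM for SlYABBY2b (-0.72).

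Whether the fas effect differed between 2 dpi and the other stages was tested in a single fit of all 60 libraries. That fit took the libraries as independent, although stages may share plants. Against the mean of the other 4 stages, 0 of 18901 genes passed an adjusted p under 0.1 in edgeR, and 293 had an unadjusted p under 0.05 (1.55%). The smallest p-values among the 19 genes were those of Solyc10g078990 (a difference of 1.39, SE 0.31, edgeR adjusted p = 0.598) and SlADH2 (-0.99, SE 0.23, edgeR adjusted p = 0.598). Against the F&IM alone, only SlYABBY2b passed (-1.64, edgeR adjusted p = 0.0550), and against 4 dpi alone only Solyc10g078990 did (1.43, edgeR adjusted p = 0.0815), each 0.00529% of the genes. The fas effect on TM5, fitted at -0.13 in the F&IM, differed by 0.60 between the F&IM and 2 dpi (edgeR adjusted p = 1.00, rounded). SlCLV3 differed by 0.79 from the F&IM (edgeR adjusted p = 0.468).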

How the data were processed

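Reads were trimmed by the authors (fqtrim) and aligned by Rsubread against tomato ITAG2.4, and whole counts per gene were deposited for the 60 libraries; how reads were assigned to genes was not stated in any source used here. A line without a gene name, at most 0.484% of a 2 dpi library, was left out of totals and tests. The fas effect at 2 dpi was tested in edgeR 4.0.16 (R 4.3.3) on the 12 libraries with the model lc plus fas, filterByExpr by group, TMM scaling, the robust quasi-likelihood test and Benjamini-Hochberg adjustment over the 17035 genes; the threshold was an adjusted p of 0.1. Intervals are 95%. RPM is counts divided by the library total. Interaction, single-background, single-stage and 60-library fits used the same steps. Replicates are dissections from pooled plants. The study sowed its plants over several weeks and collected tissue daily for each replicate. It does not say that each replicate was a separate sowing, so p-values measure the spread between these libraries. Gene names and Arabidopsis pairs come from the study. Lists were matched through homolog pairs from the study's gene lists, and 19 list members without such a pair were left out. These were 7 MADS-box, 5 inflorescence and organ boundary, 4 stem cell and 3 YABBY genes. Lists by product name could not be built. Members and lists were chosen with earlier results of these data known. Named genes are SlCLV3, SlYABBY2b, SlWUS, SlCLE9 and TAG1, up to 15 rises and 15 falls called with a mean of at least 5 RPM, up to 4 members of each list and up to 10 genes called for the interaction or the stage difference, by p; Solyc09g014550, Solyc10g078990, Solyc04g054740, Solyc03g112590 and some members of lists and the segment were named after their values were seen. On simulated data for the 2 dpi comparison (16858 genes), 65 of 100 genes changed 1.5-fold and 91 of 100 genes changed 2-fold were recovered, with 25 false calls. The false calls were a larger share of all calls than the adjusted threshold of 0.1 stands for. Both sets were changed in the same draw, many more genes than the 19 called here, and no replicate structure was simulated. These shares can therefore overstate recovery in the real comparison.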

Additional observations from a re-analysis of the deposited data

Results flagged for a closer look

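In groups of 6 libraries, 4 of 44 tested had 1 library set apart from the others by more than Dixon's critical value (chance gives about 1 in 20). Without fas, WT replicate 2 stood at 99.8 RPM for Solyc06g053830, with the next library at 86.7 RPM. WT replicate 1 stood at 21.5 RPM for Solyc04g008330, with the next at 27.4 RPM. For SlADH2, WT replicate 3 stood at 45.3 RPM and the next at 22.7 RPM. With fas, fas replicate 2 stood at 2.77 RPM for Solyc10g078990, and the next at 6.84 RPM.

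The fas effect differed between the backgrounds without and with lc for 2 genes in the test of the interaction, Solyc11g040040 (3.05 on the log2 scale) and Solyc12g082720 (1.2). Leaving out each of the 12 libraries in turn kept both calls: the interaction ran from 2.90 to 3.19 for Solyc11g040040 and from 1.13 to 1.28 for Solyc12g082720, with edgeR adjusted p of at most 0.0805.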

How the results depend on the processing

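All 19 genes called kept their sign under every alternative in which they were fitted. The alternatives reuse the libraries that the genes were called on, so this is not independent evidence. The counts were less stable than the signs. Genes higher and lower with fas, 9 and 10 in the report, numbered 15 and 22 in DESeq2 1.42.0 (662 genes had no adjusted p), 75 and 67 without a filter (28978 genes tested), 5 and 4 in the fit of all 60 libraries, 2 and 5 for fas against WT, 2 and 2 for lc/fas against lc, and 8 and 5 at an adjusted p under 0.05. Genes called in the fas segment, 2 in the report, were 4 in DESeq2, 6 without a filter, and 1 each in the 60-library fit, at an adjusted p under 0.05, for fas against WT and for lc/fas against lc. DESeq2 size factors, total counts, limma-voom, a stricter filter, no lc covariate and leaving out the introgressed genes gave 17 to 22 calls; limma-voom lost Solyc10g078990, and dropping the covariate lost TM5, Solyc09g014550 and SlADH2. The stage difference, 0 genes in the report, gave 1 gene against the F&IM alone and 1 against 4 dpi alone.

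Replicate numbers were checked for pairing. Residuals of same-numbered libraries correlated at 0.042 to 0.43 across genes (over 0.1 in 15 of 18 pairs, mean 0.19, against -0.094 for other pairs). All 12 libraries correlated best with their own number. These values show pairing by replicate number in the data, which the labels do not name. Because not every pair was over 0.1, the main fits left the number out, and their counts ignore this pairing. With the replicate number as a block, 40 genes were higher and 43 lower, all 19 calls were kept, 4 genes of the segment and 10 genes of the interaction were called.

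Leaving out 1 library at a time (the leave-outs of the stage difference were chosen after seeing the data) gave 6 to 12 genes higher, 2 to 23 lower, 1 to 2 in the segment, 2 to 5 for the interaction and 0 to 1 for the stage difference. The number lower was 23 without fas replicate 3 and 2 without lc/fas replicate 1. SlYABBY2b, SlCLE9, Solyc01g081250, Solyc09g009620, Solyc06g054640, Solyc09g014550 and Solyc06g053830 kept their calls in all 12. The other 12 genes lost theirs, with the highest edgeR adjusted p in brackets: TM5 without WT 1 or 2 (0.121); the AGL20 homolog without WT 3, lc 1 or lc/fas 1 (0.127); Solyc07g043500 without WT 2 or 3, fas 1 or lc/fas 1 (0.139); Solyc04g008330 without WT 2 or 3 or lc/fas 1 or 2 (0.143); the DWARF1 homolog without WT 2 or 3, lc 2, fas 1 or lc/fas 1 or 2 (0.157); Solyc10g078990 without WT 1 or 2, lc 1 or 2, fas 1 or lc/fas 1 or 2 (0.170); Solyc12g006470 without WT 2 or 3, lc 1, fas 1 or lc/fas 1 or 2 (0.195); Solyc10g085280 without WT 3, lc 1 or 2, fas 1 or lc/fas 1 or 2 (0.195); Solyc11g071640 without WT 1 or 3, any lc, fas 1 or lc/fas 1 or 2 (0.195); SlSWEET1b without any WT, lc 1 or 3, fas 2 or lc/fas 2 or 3 (0.215); Solyc09g075750 without WT 2 or 3, any lc, fas 1 or lc/fas 1 or 2 (0.214); and SlADH2 without lc 1 or 3, any fas or any lc/fas (0.325).

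Signs that turned belonged to genes that had not passed. SlCLV3 was at -0.099 in lc/fas against lc and at -0.021, -0.013 and -0.027 without WT replicate 1, WT replicate 2 and fas replicate 3, with up to 0.098 in the other leave-outs. SlWUS was at -0.049 in lc/fas against lc and -0.072 without fas replicate 2 (up to 0.13 in the others), and TAG1 at -0.0058 in fas against WT and -0.14 without lc/fas replicate 1 (up to 0.60 in the others). Solyc11g040040 was at -9.5e-04 in the 60-library fit, -1.53 in fas against WT, -0.20, -0.21 and -0.14 without lc replicates 1, 2 and 3, and -0.14, -0.060 and -0.066 without lc/fas replicates 1, 2 and 3, with up to 0.30 in the others. Solyc12g082720 was at 0.31 in lc/fas against lc.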
